A study of Mus musculus with 8 samples.

Results

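The genes described here are 9 transcripts that report on the integrated stress response and its transcription factor ATF4: Atf4, Ddit3, Trib3, Asns, Chac1, Psat1, Phgdh, Sesn2 and Gdf15. They were chosen by gene symbol, with earlier results of these data known, and are 9 of the 54532 genes of the table. The symbols match 10 rows, because Ddit3 has a second, 105-base row that lies wholly within the exons of the first and is listed at 0 in every library. The samples are kidneys of ICR mice, an outbred stock, either exposed to BPA (bisphenol A, a building block of polycarbonate and epoxy plastics) or given vehicle. Each of the BPA and vehicle groups holds 4 libraries of polyadenylated RNA. The sources used here give no dose, route or length of exposure and no sex or age of the mice. The labels do not say that each library came from its own mouse, so the p-values measure the spread between these libraries, which may be in part technical.

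In the integrated stress response, kinases that sense amino acid shortage, misfolded protein in the endoplasmic reticulum, viral RNA or haem shortage phosphorylate the translation factor eIF2. General protein synthesis then falls while translation of the Atf4 mRNA rises, through upstream open reading frames in its leader, so the amount of Atf4 transcript is not a measure of ATF4 protein, which was not measured here. ATF4 pairs with other basic leucine zipper proteins, among them members of the C/EBP family, on a composite element of a C/EBP and an ATF site, and raises transcription of genes for amino acid synthesis and transport, for redox balance and for restraint of the response itself. In the kidney this response is best known from the proximal tubule under nutrient, toxic or mitochondrial stress.

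The composite element, searched as TGATGNAA on both strands from 250 bases before to 50 bases after the start of each gene in RefSeq (build GRCm38.p6), was found in 3 of the 9 genes and in 3.97% of all 32851 mouse windows of that length. The 3 matches are shown with their surrounding bases, on the strand of the gene, because they are the element by which ATF4 is known to act. Capitals mark the match.

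Chac1 (chr2:119351038-119351067, plus strand): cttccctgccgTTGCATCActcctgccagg
Trib3 (chr2:152344028-152344057, minus strand): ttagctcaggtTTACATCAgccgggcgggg
Asns (chr6:7693214-7693243, minus strand): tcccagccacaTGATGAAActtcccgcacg

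The Chac1 match runs from 193 to 186 bases before the start, in the reverse orientation. The Asns match runs from 23 to 16 bases before the RefSeq start. The Trib3 match lies at bases 15 to 22 after the RefSeq start, so with only the 250 bases before the start searched the count was 2 of 9, against 3.45% of all windows. In the other 6 genes these letters are not in the window, which says nothing of elements farther away. Other motifs searched in the same windows were the cAMP response element TGACGTCA, found in 0 of 9 members and 1.79% of all windows, and the AP-1 site TGANTCA, found in Ddit3 alone and in 7.81% of all windows. The CCAAT box, 5 letters long, was found in 7 of 9 members and in 37.4% of all windows. For every motif a member counted if any of its windows held it, and Gdf15 and Psat1 each have a second RefSeq start. The shares are of single windows, so member counts and shares are not fully alike. Gdf15 had a CCAAT box only at its second start.

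Atf4 and Gdf15 are the 2 members whose libraries did not overlap between the groups. The 250 bases before their starts are shown for that reason, on the strand of the gene, with CCAAT boxes in capitals.

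Atf4 (chr15:80254934-80255183, plus strand): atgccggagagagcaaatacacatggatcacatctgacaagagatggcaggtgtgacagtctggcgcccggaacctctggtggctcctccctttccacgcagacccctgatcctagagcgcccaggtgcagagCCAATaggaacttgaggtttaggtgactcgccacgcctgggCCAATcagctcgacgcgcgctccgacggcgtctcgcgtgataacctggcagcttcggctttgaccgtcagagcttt
Gdf15 (chr8:70632457-70632706, minus strand): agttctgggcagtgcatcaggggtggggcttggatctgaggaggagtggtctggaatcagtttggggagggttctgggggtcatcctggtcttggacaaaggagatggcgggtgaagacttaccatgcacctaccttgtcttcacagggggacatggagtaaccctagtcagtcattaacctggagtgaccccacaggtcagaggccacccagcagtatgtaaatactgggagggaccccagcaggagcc

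The Atf4 stretch is 59.2% G and C and holds 2 CCAAT boxes, both on the gene's own strand. The Gdf15 stretch is 56.4% G and C and holds none of the 4 motifs. RefSeq lists a second Gdf15 start within the gene, and a CCAAT box on the opposite strand ends 2 bases before it.

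All values are FPKM, a read count scaled by gene length and by library size, so levels can be set side by side between genes. Fold changes are differences between the group means of log2(FPKM + 1), BPA minus vehicle, with their standard error (SE), from a limma fit to the 13376 genes with a mean of at least 0.5 FPKM. The pseudocount of 1 understates the change of low genes. Adjusted p-values are Benjamini-Hochberg values over all 13376 genes. The fit called 1 gene, or 0.00748% of those tested, at an adjusted p below 0.05, and no member was that gene. In bulk kidney RNA, fewer cells of a type and less RNA per cell cannot be told apart.

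Of the 9 members, 8 passed the filter on low values and Trib3, at a mean of 0.331 FPKM, did not. Chac1 passed by its vehicle level alone, 0.765 FPKM against 0.349 FPKM under BPA. None of the 8 tested members passed the test in either direction. The fitted change was below 0 for 6 of the 8 and above 0 for Psat1 and Phgdh, while 52.0% of all tested genes had a change below 0. Chac1 is among the 6, and the direction of its change is tied to the way it passed the filter. The median change of the 8, Chac1 included, was -0.34, against -0.01 over all tested genes. Gdf15 alone had an unadjusted p below 0.05 and was lower under BPA, as were 6.83% of all tested genes by that measure. For Atf4 and Gdf15 each of the 4 BPA values lay below the lowest vehicle value, a pattern seen in 4.66% of tested genes. No member had all its BPA values above all its vehicle values, as 3.23% of tested genes did. Leaving out a library cannot make separate groups overlap. With any 1 of the 8 libraries left out no further member separated in either direction, while the share of all tested genes that did was 6.03% to 8.24% lower and 4.39% to 6.62% higher under BPA. The plot of FPKM by library shows each member's values.

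**Figure D1:**
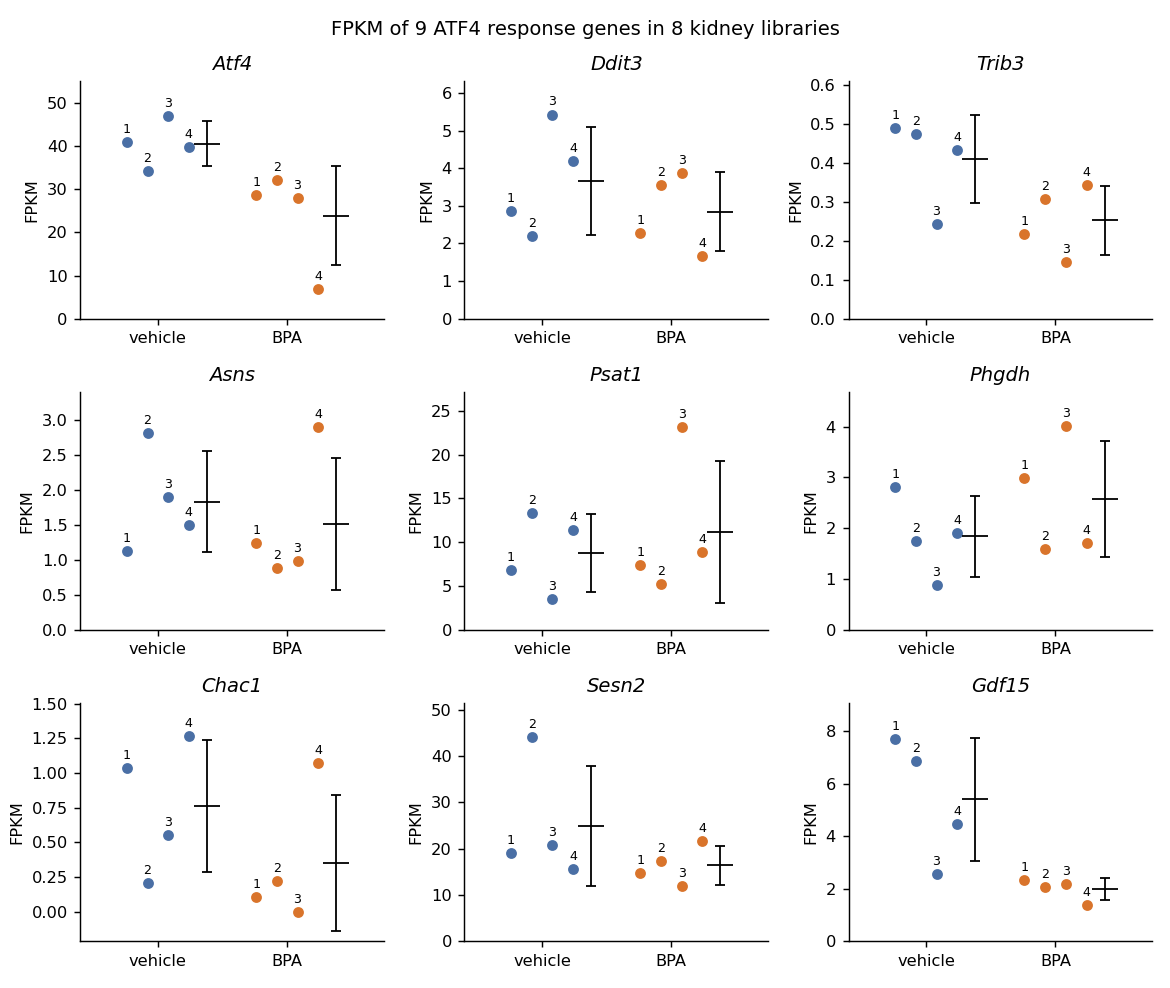
FPKM of the 9 members in each of the 4 vehicle and 4 BPA libraries (points, 1 panel per gene, linear axis), with the mean and SD of each group. Atf4 and Gdf15 are the 2 genes whose groups do not overlap, and the BPA point of Atf4 at 6.95 FPKM lies far below the other 3.

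Atf4 (ENSMUSG00000042406, chr15:80255184-80257541 on the plus strand of GRCm38) encodes the transcription factor at the centre of the response. Its level was 41.0, 34.3, 47.0 and 39.9 FPKM in vehicle replicates 1 to 4 and 28.6, 32.1, 28.0 and 6.95 FPKM in BPA replicates 1 to 4. The 4 vehicle libraries all lay above the 4 BPA libraries, and BPA replicate 4 stood apart below the rest. The means were 40.5 ± 5.22 and 23.9 ± 11.4 FPKM (SD, n = 4 each). The log2 change was -0.92 (SE 0.417, limma adjusted p = 0.461), which did not pass the test. Without BPA replicate 4 it was -0.44 (limma adjusted p = 0.391). The spread within groups was 12.9% of the mean in vehicle and 47.9% under BPA.

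Ddit3 (ENSMUSG00000025408, chr10:127290774-127296288, plus strand) encodes CHOP, a transcription factor that ATF4 induces and that is linked to cell death under prolonged stress. Ddit3 was at 2.87, 2.19, 5.43 and 4.20 FPKM in the vehicle libraries and at 2.29, 3.56, 3.87 and 1.66 FPKM in the BPA libraries. The groups overlapped widely, with the highest value in vehicle replicate 3 and the lowest in BPA replicate 4. The means were 3.67 ± 1.44 and 2.85 ± 1.05 FPKM (SD, n = 4 each), and the log2 change was -0.27 (SE 0.264, limma adjusted p = 0.687). Leaving out single libraries gave changes from -0.44 (vehicle replicate 2) and -0.40 (BPA replicate 3) to -0.11 (BPA replicate 4) and -0.10 (vehicle replicate 3). Ddit3 shares 68 exonic bases with Mars on the opposite strand, which stood at a mean of 12.4 FPKM, and 13 with Gm4189. The sources used here do not say whether the counting used strand, so reads from those bases cannot be assigned to 1 gene.

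Trib3 (ENSMUSG00000032715, chr2:152337422-152344032, minus strand) encodes a pseudokinase that ATF4 and CHOP induce and that restrains both. Its level was 0.488, 0.474, 0.243 and 0.434 FPKM under vehicle and 0.217, 0.307, 0.145 and 0.342 FPKM under BPA. All 4 BPA libraries lay below the vehicle mean, yet vehicle replicate 3 lay within the BPA range. These values rest on 61 reads in the vehicle group and 36 in the BPA group. In a fit without the filter the log2 change was -0.17 (SE 0.102, limma adjusted p = 0.711).

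Asns (ENSMUSG00000029752, chr6:7675169-7693254, minus strand) encodes asparagine synthetase, the textbook amino acid response gene. Its level was 1.12, 2.80, 1.89 and 1.49 FPKM under vehicle and 1.24, 0.888, 0.988 and 2.90 FPKM under BPA. BPA replicate 4, which had the lowest Atf4, had the highest Asns of all 8 libraries. The group means were 1.83 ± 0.723 and 1.504 ± 0.941 FPKM (SD, n = 4 each), with a log2 change of -0.21 (SE 0.263, limma adjusted p = 0.765). The change depended on single libraries and went to -0.33 or -0.05 when vehicle replicate 1 or 2 was left out, and to -0.09, -0.12 or -0.44 when BPA replicate 2, 3 or 4 was.

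Psat1 and Phgdh encode phosphoserine aminotransferase and phosphoglycerate dehydrogenase, successive enzymes of serine synthesis from a glycolytic intermediate. Psat1 (ENSMUSG00000024640, chr19:15904678-15947337, minus strand) was at 6.88, 13.3, 3.46 and 11.4 FPKM under vehicle and 7.44, 5.23, 23.1 and 8.89 FPKM under BPA. Phgdh (ENSMUSG00000053398, chr3:98313170-98339990, minus strand) was at 2.81, 1.76, 0.884 and 1.90 FPKM under vehicle and 2.99, 1.60, 4.002 and 1.70 FPKM under BPA. For both enzymes vehicle replicate 3 was the lowest and BPA replicate 3 the highest of the 8 libraries, and the groups overlapped. The Psat1 means were 8.77 ± 4.46 and 11.2 ± 8.11 FPKM (SD, n = 4 each) with a log2 change of 0.25 (SE 0.474, limma adjusted p = 0.844). The Phgdh means were 1.84 ± 0.789 and 2.57 ± 1.14 FPKM (SD, n = 4 each) with a log2 change of 0.32 (SE 0.269, limma adjusted p = 0.644). Leaving out 1 library turned the sign of the Psat1 change, to -0.08 without vehicle replicate 3 and to -0.15 without BPA replicate 3. It grew to 0.48 or 0.41 when vehicle replicate 2 or 4 was left out, and to 0.51 when BPA replicate 2 was. The Phgdh change was 0.14 without vehicle replicate 3 and also 0.14 without BPA replicate 3. Phgdh values are uncertain for another reason, since 21 other annotated genes carry transcript sequence at least 90% identical to it over 100 or more bases, of which 5 had reads. The 2 of them that passed the filter, Gm7901 and Gm9347, stood at 0.777 and 0.397 FPKM under vehicle and at 0.579 and 0.604 FPKM under BPA.

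Chac1 (ENSMUSG00000027313, chr2:119351229-119354381, plus strand) encodes a gamma-glutamylcyclotransferase that breaks down glutathione. Its level was 1.03, 0.205, 0.553 and 1.27 FPKM under vehicle and 0.106, 0.217, 0 and 1.07 FPKM under BPA. The vehicle values rest on 31, 6, 14 and 36 reads and the BPA values on 3, 6, 0 and 29 reads, so Chac1 was not detected in BPA replicate 3, where 0 reads allow a level of up to 0.113 FPKM (3 reads, counting error only). BPA replicate 4 reached the level of the highest vehicle libraries. The means were 0.765 ± 0.477 and 0.349 ± 0.490 FPKM (SD, n = 4 each), and the log2 change was -0.41 (SE 0.278, limma adjusted p = 0.573), or -0.63 without BPA replicate 4. At so few reads the change depends on the scale and ran from -2.04 to -0.24 over the alternatives tried, with 0 of them past the test.

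Sesn2 (ENSMUSG00000028893, chr4:132492032-132510501, minus strand) encodes sestrin 2, a leucine sensor that holds back mTORC1 and is also a target of p53 and NRF2. Its level was 19.1, 44.1, 20.7 and 15.7 FPKM under vehicle and 14.7, 17.2, 11.8 and 21.6 FPKM under BPA. Vehicle replicate 2 was the highest by far, and the remaining 7 libraries ran from 11.8 to 21.6 FPKM with the groups interleaved. The means were 24.9 ± 13.0 and 16.3 ± 4.17 FPKM (SD, n = 4 each), and the log2 change was -0.49 (SE 0.308, limma adjusted p = 0.543). Without vehicle replicate 2 the change was -0.19.

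Gdf15 (ENSMUSG00000038508, chr8:70629393-70632456, minus strand) encodes a secreted hormone of the TGF-beta superfamily that acts on the brainstem to lower food intake and that ATF4, CHOP and p53 induce. Its level was 7.72, 6.86, 2.55 and 4.48 FPKM under vehicle and 2.33, 2.05, 2.16 and 1.37 FPKM under BPA. The groups did not overlap, but vehicle replicate 3 lay only just above the highest BPA library. The means were 5.40 ± 2.35 and 1.98 ± 0.420 FPKM (SD, n = 4 each), 2.73-fold lower under BPA. The log2 change was -1.03 (SE 0.271, limma adjusted p = 0.355), which did not pass the test. It lay between -1.29 and -0.86 when any 1 library was left out, and the adjusted p lay between 0.161 and 0.671 over all alternatives tried. The receptor of the hormone has its own pair of genes, and neither passed the filter: Gfral had 0 reads in all libraries, and Ret had 49 reads under vehicle and 29 under BPA.

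**Figure D2:**
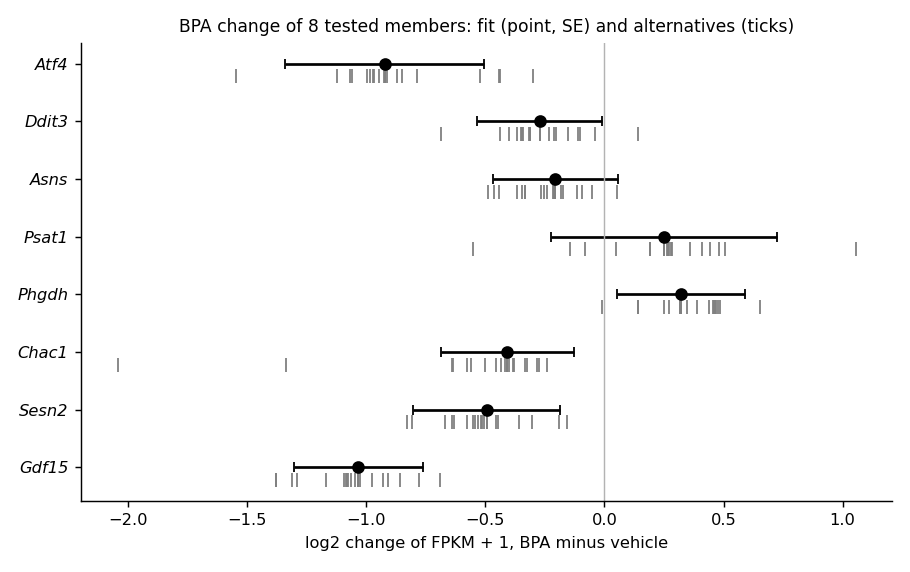
Change of the members tested, BPA minus vehicle on the log2(FPKM + 1) scale (points), with 1 SE on each side. Grey ticks give the change under each alternative tried. Gdf15 at -1.03 and Atf4 at -0.92 lie farthest from 0, Psat1 and Phgdh lie above it, and none of the 8 passed the adjusted test.

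The order of mean levels was the same in both groups but for Gdf15. Under vehicle it ran from Atf4 at 40.5 through Sesn2 at 24.9, Psat1 at 8.77, Gdf15 at 5.40, Ddit3 at 3.67, Phgdh at 1.84, Asns at 1.83 and Chac1 at 0.765 to Trib3 at 0.410 mean FPKM. Under BPA, Gdf15 at 1.98 mean FPKM stood below Ddit3 and Phgdh instead of above them. Neighbours in that order overlapped in their libraries within each group, with 2 exceptions. Under vehicle all Sesn2 values lay above all Psat1 values, and under BPA all Psat1 values lay above all Ddit3 values.

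With the spread pooled over both groups, the 8 tested members varied more between libraries of the same group than most genes did. The residual SD within groups on the log2(FPKM + 1) scale lay between the 84.3rd percentile (Asns) and the 96.7th percentile (Psat1) of all tested genes for the 8 members tested. For reference, the median tested gene had a within-group coefficient of variation of 16.9% in vehicle and 21.0% under BPA. Among the tested members that coefficient ran from 12.9% for Atf4 to 62.4% for Chac1 under vehicle, and from 21.3% for Gdf15 to 141% for Chac1 under BPA. Atf4 thus lay below the median gene in vehicle, and Gdf15 lay close to it under BPA. The percentiles were not matched for level.

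The spread did not follow 1 shared order of libraries. BPA replicate 4 held the lowest Atf4, Ddit3 and Gdf15 of the 8 libraries together with the highest Asns and the second highest Chac1 and Sesn2. Vehicle replicate 3 held the highest Atf4 and Ddit3 together with the lowest Psat1 and Phgdh. BPA replicate 3 held the lowest Trib3, Chac1 and Sesn2 together with the highest Psat1 and Phgdh. The map of deviations shows these opposed rows.

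**Figure D3:**
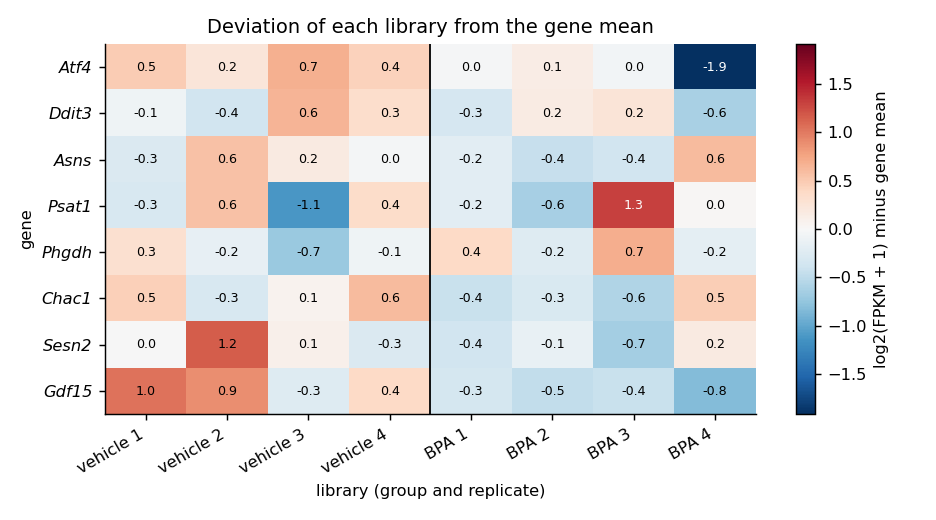
Deviation of each member (rows) in each library (columns) from that gene's mean over the 8 libraries, in log2(FPKM + 1) units, shown by colour and number. In BPA replicate 4 Atf4, Ddit3 and Gdf15 are below 0 while Asns, Chac1 and Sesn2 are above it.

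Across the 8 libraries, Pearson correlations of log2(FPKM + 1) were computed for the 28 pairs of tested members. No pair passed at an adjusted p below 0.05, and 2 had an unadjusted p below 0.05 in the exact permutation test. The highest was Asns with Sesn2, at r = 0.76 (exact permutation p = 0.0143, adjusted p = 0.400) and Spearman rho = 0.71 (exact permutation p = 0.0576, adjusted p = 0.775), with r = 0.49 without the 2 libraries farthest from the Asns median. The other was Atf4 with Ddit3, at r = 0.70 (exact permutation p = 0.0346, adjusted p = 0.484) and rho = 0.57 (exact permutation p = 0.151, adjusted p = 0.846). That relation rests on 2 libraries, since r was 0.14 without them. Psat1 with Phgdh gave r = 0.68 (exact permutation p = 0.0621, adjusted p = 0.580) and rho = 0.62 (exact permutation p = 0.115, adjusted p = 0.805), with r = -0.23 without the 2 farthest libraries. Atf4 with Gdf15 gave r = 0.58 (exact permutation p = 0.120, adjusted p = 0.781) and rho = 0.76 (exact permutation p = 0.0368, adjusted p = 0.775). Once each group's own mean was taken away, that r fell to 0.20. Without the 2 libraries farthest from the Atf4 median, r for Atf4 with Gdf15 was 0.80. Atf4 with Asns gave r = -0.47 (exact permutation p = 0.251, adjusted p = 0.781) and rho = 0 (exact permutation p = 1, adjusted p = 1). The sign of that r rests on the 2 libraries farthest from the Atf4 median, BPA replicate 4 and vehicle replicate 3, since r over the other 6 was 0.23. On deviations from the group means of all 8 libraries, r was -0.83 (permutation, adjusted p = 0.283) and rho was -0.60. That p is approximate, because the deviations sum to 0 within each group and were permuted across groups.

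The genes whose levels followed each of Atf4, Ddit3 and Gdf15 most closely were taken from 11281 protein-coding tested genes by Pearson r over the 8 libraries, as a description with no p. The closest to Atf4 was Atp5g3, a gene for the c subunit of the mitochondrial ATP synthase, at r = 0.998 over the 8 libraries, 0.979 without BPA replicate 4 and rho = 1. Atp5g3 stood at 297, 259, 362 and 293 FPKM under vehicle and 228, 236, 227 and 70.6 FPKM under BPA, in the same order as Atf4. The next were Chchd2, which encodes a mitochondrial protein, at r = 0.996, and Atp5d, the delta subunit of the same synthase, at r = 0.993. All 3 were lowest in BPA replicate 4, as Atf4 was. Ddit3 was followed most closely by Ubxn1 (r = 0.982), Msrb2 (r = 0.974) and Vps45 (r = 0.974). Gdf15 was followed most closely by Zfp36l1, which encodes a protein that destabilises AU-rich mRNAs (r = 0.973), and by the transcriptional repressors Cic (r = 0.964) and Mnt (r = 0.963). None of the other members was among these 9 nearest genes.

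**Figure D4:**
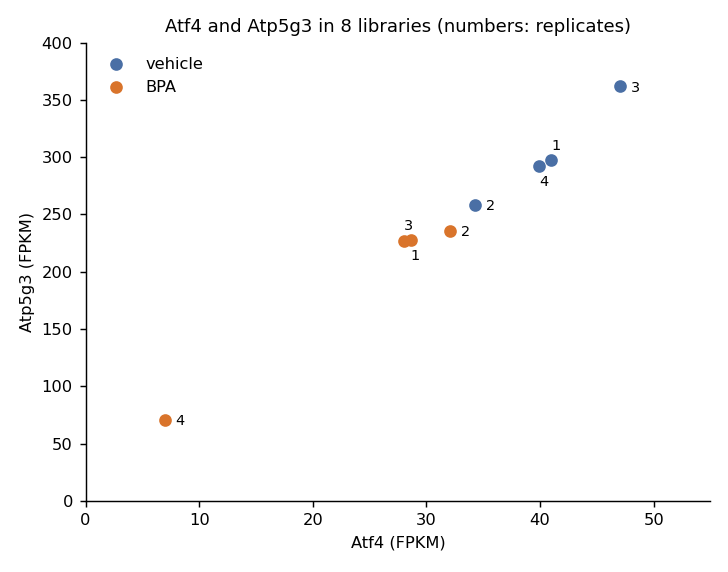
FPKM of Atf4 (x axis) against FPKM of Atp5g3 (y axis) in the 8 libraries, numbered by replicate. The libraries lie along 1 line from BPA replicate 4 at 6.95 and 70.6 FPKM to vehicle replicate 3 at 47.0 and 362 FPKM.

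The remaining genes of the response were read from lists of their roles, and of 104 tested none passed the test in either direction. Upstream of Atf4, all 17 genes of a list around eIF2 were tested, with 11 changes above 0 and a median of 0.11. The list holds eIF2 kinases, eIF2, its exchange factor and its phosphatase subunits, with Dnajc3, Impact and Oma1 beside them. Dnajc3, Impact and Oma1, which encode none of these, changed by 0.11, 0.10 and 0.17. Eif2ak2, the kinase PKR that senses double-stranded RNA, was at 3.14 ± 0.384 FPKM under vehicle and 3.92 ± 0.214 under BPA (SD, n = 4 each; log2 change 0.25, limma adjusted p = 0.429). Eif2s3x, a subunit of eIF2 itself, had means of 14.8 and 19.6 FPKM (log2 change 0.35, limma adjusted p = 0.463), with 27.1 FPKM in BPA replicate 4. Without that library the change was 0.19.

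Among the basic leucine zipper partners of ATF4, 9 of 11 genes were tested, 8 had a change below 0 and the median was -0.63. Of all tested genes, 52.0% had a change below 0. The transcripts of the 9 have a median G and C content of 55.5%, against 49.7% for all tested genes. The part of that content in the median change was not tested. Jun, the AP-1 subunit, was at 11.8 ± 2.07 FPKM under vehicle and 5.53 ± 0.845 under BPA (SD, n = 4 each), and its groups did not overlap. Its log2 change was -0.97 (limma adjusted p = 0.218). Jun did pass in 1 alternative, with each library weighted by how well it followed the fit, at -1.06 (limma adjusted p = 0.0340). Cebpb, a C/EBP partner that shares the composite element with ATF4, was at 25.2, 10.5, 25.1 and 23.97 FPKM under vehicle and 6.82, 12.2, 7.88 and 2.01 under BPA. Its log2 change was -1.54 (limma adjusted p = 0.365). Vehicle replicate 2 and BPA replicate 2 overlapped, and the lowest value was again in BPA replicate 4.

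The targets outside the members gave smaller medians. Of 10 amino acid transporter genes, 8 were tested, 2 with a change above 0 and 6 below, with a median of -0.10. Slc36a4, an amino acid transporter of the SLC36 family, had every BPA value above every vehicle value, with 1.66 ± 0.212 against 0.999 ± 0.252 FPKM (SD, n = 4 each; log2 change 0.42, limma adjusted p = 0.374). Slc1a5, a glutamine transporter, was at 3.51 FPKM under BPA and 5.40 under vehicle (log2 change -0.44, limma adjusted p = 0.557). That difference rests on vehicle replicate 4, at 9.65 FPKM against 3.17 to 4.44 FPKM in the other vehicle libraries, and was -0.16 without it. Slc7a11, the cystine transporter and a known ATF4 target, had 41 reads under vehicle and 8 under BPA and was not tested.

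All 20 cytosolic aminoacyl-tRNA synthetase genes were tested, 12 with a change below 0, with a median of -0.07. Farsa, a subunit of the phenylalanine enzyme, was lower in all BPA libraries, at 4.66 ± 0.308 against 6.72 ± 0.619 FPKM (SD, n = 4 each; log2 change -0.44, limma adjusted p = 0.306). Rars, the arginine enzyme, was at 15.9 FPKM under BPA and 13.0 under vehicle (log2 change 0.28, limma adjusted p = 0.408). Downstream of Phgdh and Psat1, 15 of 17 serine, glycine and one-carbon genes were tested, 10 with a change below 0, with a median of -0.07. Shmt2, the mitochondrial enzyme that turns serine into glycine, was at 82.4 FPKM under BPA and 106 under vehicle (log2 change -0.36, limma adjusted p = 0.453). Mthfd2, which works on the one-carbon unit that Shmt2 releases, was at 0.697 and 1.23 FPKM (log2 change -0.39, limma adjusted p = 0.494). Leaving out vehicle replicate 2 brought the Mthfd2 change to -0.25, and leaving out BPA replicate 4 to -0.24. Among 6 tested enzymes of other amino acid and sulfur pathways the median was -0.14, with Cbs at -0.25 (limma adjusted p = 0.475) and Gpt2 at -0.16 (limma adjusted p = 0.651). For Gpt2 the change was -0.07 when vehicle replicate 3 was left out and -0.25 when BPA replicate 4 was.

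Of 16 stress effectors linked to ATF4 or CHOP, 13 were tested, 9 with a change below 0, with a median of -0.15. Sqstm1, the autophagy receptor p62, was at 142 ± 15.2 FPKM under BPA and 185 ± 15.0 under vehicle (SD, n = 4 each; log2 change -0.38, limma adjusted p = 0.374). Eif4ebp1, an inhibitor of cap-dependent translation that ATF4 induces, was at 2.42 ± 0.774 and 4.17 ± 0.905 FPKM (SD, n = 4 each; log2 change -0.61, limma adjusted p = 0.374). For both Sqstm1 and Eif4ebp1 every BPA value lay below every vehicle value, as in 4.66% of all tested genes. They were 2 of the 13 tested effectors, and 0 separated in the other direction. Chaperones of the neighbouring ATF6 and XBP1 branches were read alongside, in a list that also holds Xbp1, Atf6 and Ern1. Of its 16 genes, 12 had a change below 0, with a median of -0.26. Xbp1 changed by -0.23, Atf6 by 0.25 and Ern1 by 0.08, and these do not encode chaperones. Creld2 was at 16.4 ± 3.33 FPKM under BPA and 34.2 ± 9.02 under vehicle (SD, n = 4 each; log2 change -1.003, limma adjusted p = 0.271). Hyou1 was at 13.8 and 20.2 FPKM (log2 change -0.51, limma adjusted p = 0.365). Creld2 and Hyou1 were among 4 of the 16 genes of this list with every BPA value below every vehicle value, and 0 separated the other way.

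**Figure D5:**
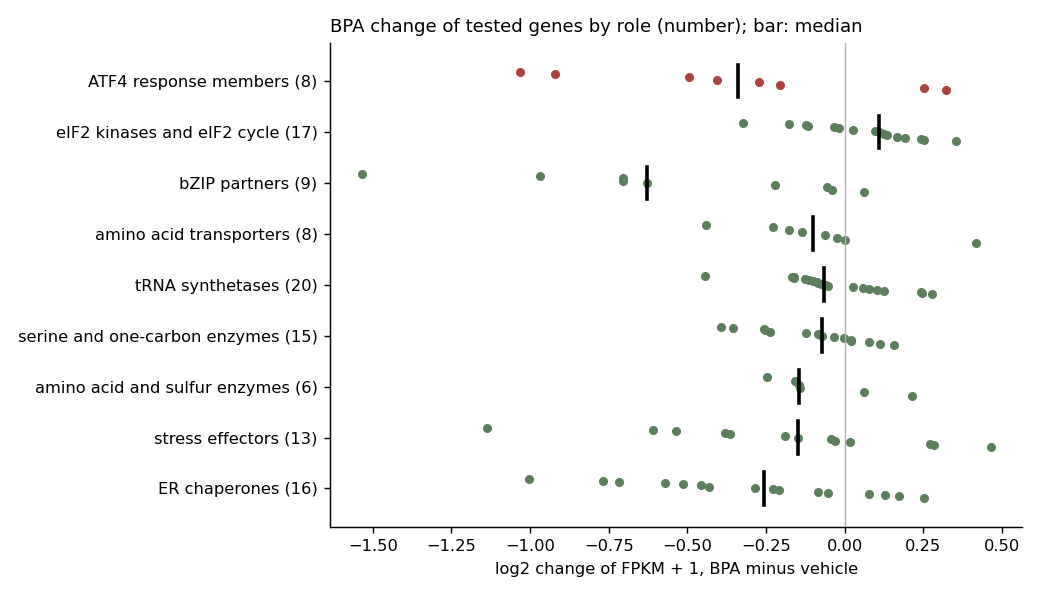
Change of each tested gene, BPA minus vehicle on the log2(FPKM + 1) scale (points), by role in or beside the response, with the median of each list as a bar. The list of basic leucine zipper partners has its median at -0.63. The list around eIF2, which also holds Dnajc3, Impact and Oma1, has its median at 0.11. The chaperone list also holds Xbp1, Atf6 and Ern1. No gene shown passed the adjusted test.

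Several features differed between the libraries, and their part in the results was not tested. Recovered reads ran from 15944081 to 17351540 per library. BPA replicate 4 had 17174 genes above 0, against 19090 to 20845 in the other libraries. Mitochondrial genes took 14.2% of its reads, where BPA replicates 1 to 3 had 9.66% to 9.85% and vehicle had 7.02% to 8.33%. Across all tested genes the change under BPA had a Spearman correlation of -0.40 with the G and C content of the transcript. Its points are genes, so it carries no replicate error. The tested members have a median content of 56.4%, against 49.7% for all tested genes, and Gdf15 has the highest among them at 61.3%. With that relation taken out the change was -0.78 for Gdf15, -0.79 for Atf4, -0.31 for Sesn2, -0.24 for Chac1 and 0.48 for Phgdh. Ddit3, Asns and Psat1 have a content below the median of all tested genes, at 45.6%, 47.7% and 48.4%. Their changes went from -0.27 to -0.31, from -0.206 to -0.209 and from 0.25 to 0.26. The summed level of 7 proximal tubule markers was 2165 to 2402 FPKM in vehicle and 1799 to 2447 FPKM under BPA. The single markers went different ways in BPA replicate 4. Slc5a12 was at 158 FPKM and Slc5a2 at 101 FPKM there, against 32.4 to 61.0 and 42.2 to 68.1 FPKM in vehicle. Aqp1 was at 188 FPKM there, against 272 to 329 FPKM in vehicle. Lrp2, Cubn and Slc34a1 also lay above their vehicle ranges in that library, and Slc22a6 lay within its own. Sums of 5 adipocyte markers were 0.193 to 51.0 FPKM in vehicle and 0 to 4.11 FPKM under BPA, those of 5 skeletal muscle markers 0.308 to 224 and 0.231 to 1.17 FPKM, and those of 5 lymphocyte markers 0.640 to 36.9 and 1.06 to 2.06 FPKM. Vehicle replicate 4 held the highest value of these 3 lists, and vehicle replicate 2 was next for the adipocyte list at 20.7 FPKM. Vehicle replicates 3 and 4 were low in 4 podocyte markers, at sums of 12.5 and 10.4 FPKM against 29.2 to 52.2 FPKM in the other libraries, and in 5 endothelial markers, at 6.72 and 9.02 against 13.3 to 30.4 FPKM. The sum of 4 thick ascending limb markers was 158 FPKM in vehicle replicate 4 and 355 to 667 FPKM elsewhere. That of 4 principal cell markers was 242 FPKM in vehicle replicate 3 and 92.2 to 124 FPKM elsewhere.

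The clock gene Arntl stood at 4.27 and 3.76 FPKM in vehicle replicates 1 and 2 and at 0.550 and 0.337 in replicates 3 and 4. Under BPA it stood at 3.17 and 2.22 in replicates 1 and 2 and at 0.106 and 0.185 in replicates 3 and 4, so each group was split the same way. Within replicates 1 and 2 the log2 change of Atf4 was -0.30 and that of Gdf15 -1.38. Within replicates 3 and 4 those changes were -1.55 and -0.69.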

How the data were processed

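Polyadenylated RNA was sequenced from 8 kidney libraries, 4 per group. The deposited table gives FPKM for 54532 genes, which the authors computed from their reads. DESeq2 1.20.0 and build GRCm38 are named without a role, per the submitters' processing notes. The aligner and the counter: not given in the sources used here. BPA columns matched by name. The columns with another letter and a number were read as the vehicle libraries because the labels hold no other group, and the number was read as the replicate. FPKM times gene length gave whole reads within 0.01 reads for 100% of values of up to 20 steps, a recovery used for depth and for an alternative test. Deposited FPKM was analysed as log2(FPKM + 1) with limma 3.58.1 (R 4.3.3; trended, robust, 2-sided, no covariate) for genes with a mean of at least 0.5 FPKM, with Benjamini-Hochberg adjustment. The fit was also run on simulated reads drawn independently for each gene, without features shared across a library, and the outcome is not given here. Correlations used exact enumeration in scipy 1.17.1. Similar transcripts were found with blastn 2.17.0 in GENCODE transcripts. The members and gene lists were chosen with earlier results of these data known. All members were named, in each other list the 2 genes with the smallest p where none was called, and for Atf4, Ddit3 and Gdf15 the 3 protein-coding genes with the highest r. Slc7a11, Arntl, the receptor genes and the Phgdh-like genes were named after their values were seen. Alternatives covered pseudocounts, filters, scaling, library weights, voom on recovered reads, blocks, G and C content and each library left out. Whether members did not overlap without each library was added after seeing the data. Intervals cover counting error only.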

Additional observations from a re-analysis of the deposited data

Results flagged for a closer look

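In each group of 4 libraries, the highest and lowest values of the named genes were compared with the rest of their group, in 68 groups with any spread, and 5 values stood far from the others. Chance alone gives about 1 in 20 such groups. Atf4 in BPA replicate 4 was at 6.95 FPKM, far below the other 3 BPA libraries. The 3 genes that followed Atf4 most closely were low in the same library, Atp5g3 at 70.6 FPKM, Chchd2 at 83.4 FPKM and Atp5d at 76.4 FPKM, and they were chosen for following it. Cebpb in vehicle replicate 2 was at 10.5 FPKM, below the other 3 vehicle libraries.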

How the results depend on the processing

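No member passed the adjusted test in any setting tried, and no pair of members did. Over all tested genes, where 1 gene was called, the count was 8 with library weights, 2 with a term for replicates 1 and 2 against 3 and 4, and 0 with voom on recovered reads (1507 genes at an unadjusted p below 0.05). Leaving out 1 library gave 0 to 4 calls: 4 when BPA replicate 3 was left out, 3 for vehicle replicate 4 and for BPA replicate 1, 2 for vehicle replicate 2 and for BPA replicate 4, and 0 for each of the other 3. With a mean of at least 5 FPKM required, 3 members were tested and 2 were lower, since fewer genes were tested. Of the other genes of the response, library weights called 1, Jun (limma adjusted p = 0.0340). Within replicates 1 and 2 the sign turned for Ddit3 (0.14), Psat1 (-0.55), Phgdh (-0.0099), Ubxn1 (0.0647), Msrb2 (0.12) and Vps45 (0.0318), and within replicates 3 and 4 for Asns (0.052). With 1 library left out the Psat1 change ran from -0.15 to 0.51, below 0 without either replicate 3, and Ubxn1 turned to 0.0062 with quantile normalization and to 0.0039 without both replicates 4. The cause of these turns was not tested.

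With the replicate number as a block, 0 genes were called (1376 at an unadjusted p below 0.05) and 0 members. Same-numbered libraries deviated together weakly, at correlations from -0.03 to 0.14, and 3 of 8 libraries correlated best with their own number, so the numbers were not taken to pair the libraries. Reads limit Chac1 and Trib3, which had at most 36 reads in any library for Chac1 and 61 in the vehicle group for Trib3.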
